A study of Mus musculus with 6 samples.

Results

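Acta2, Ctgf, Thbs2 and Cav1 were 4 of the 84 genes of interest that the labels and the plate map give for a qRT-PCR plate run on mouse skin. The methods of the paper state a smaller number of genes for the plate. They were taken by name, with the paper's plate map giving the well of each gene. All 4 were measured in every animal and were among the 82 genes tested, those with at least 2 threshold cycles (Ct) in each group. Skin came from the back of 3 GVHD controls and 3 CpG-proB recipients at day+70. Both groups were female Balb/c mice, 10 weeks old and irradiated at 5.8 Gy, that had been grafted with cells of C57BL/6 donors (C57BL/6J in the methods), 5000000 of bone marrow depleted of T and B cells and 1000000 splenocytes. The CpG-proB recipients had in addition received 750000 CpG-proBs, B-cell progenitors sorted after activation of C57BL/6J bone marrow with the TLR-9 agonist CpG and then expanded on stromal cells. Every animal was therefore irradiated and grafted, and no healthy skin was compared here. RNA was taken from a whole piece of skin of 2 cm2, so fewer cells of a type and less RNA per cell cannot be told apart.

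Myofibroblasts are contractile fibroblasts that deposit and tighten matrix in scars and in sclerotic skin. Acta2 encodes smooth-muscle alpha-actin, the actin of their stress fibres, which is also abundant in the muscle of vessel walls and of hair follicles. Ctgf (now named Ccn2) and Thbs2 encode matricellular proteins, secreted proteins that sit in the matrix and tune signals without building it. CTGF is a known target of TGF-beta, and thrombospondin-2 restrains angiogenesis and binds matrix metalloproteinases for clearance. Cav1 encodes caveolin-1, the scaffold of membrane caveolae, which takes part in the internalization of TGF-beta receptors. It is abundant in endothelium, fat and fibroblasts and is not a matricellular protein, so the 4 genes do not mark a single cell type.

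Upstream sequence is shown for Thbs2, as the gene with the largest difference, and for Acta2, as the classical promoter of contractile cells. The windows are the 250 bases before a start site in RefSeq on GRCm38.p6, and 3 of the 4 genes were matched there. Letters in capitals in the Thbs2 window are matches, on either strand, to TATAA and to CAGAC, the pentamer bound by SMAD proteins (read as TTATA and GTCTG on the other strand). The Thbs2 window lies at chr17:14694263-14694512, minus strand.
Thbs2: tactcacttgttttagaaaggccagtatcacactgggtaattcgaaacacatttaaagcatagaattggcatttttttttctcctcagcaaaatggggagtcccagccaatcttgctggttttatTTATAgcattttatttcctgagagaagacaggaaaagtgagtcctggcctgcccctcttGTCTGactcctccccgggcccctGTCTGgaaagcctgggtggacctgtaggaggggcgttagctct
It held 2 matches to CAGAC, which began 66 and 43 bases before the start. The pentamer was not particular to Thbs2, with 1 match in the Acta2 window and 2 in 1 of the 2 Cav1 windows, and at least 1 such match was found in 42.2% of the 32851 windows of all genes. The Acta2 window held no strict CArG box, the site of serum response factor, and 2 sites that differ from it by 1 G or C in the A/T core. These are shown in capitals, at chr19:34255438-34255467 and chr19:34255388-34255417, minus strand.
Acta2 distal: gtgctgaggtCCCTATATGGttgtgttaga
Acta2 proximal: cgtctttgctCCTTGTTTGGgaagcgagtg
Such a CArG site with at most 1 G or C was found in 8.59% of all windows and in neither the Thbs2 window nor the Cav1 windows. These matches describe the letters, not binding.

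The plate was read with SYBR Green, and the Ct of a well is where its fluorescence crosses a set level during PCR. Low Ct values stand for abundant cDNA, and at full efficiency 1 cycle is a factor of 2. The 4 genes were measured well before the negative-control wells, which crossed the level from 28.21 to 30.13 cycles. The Ct of Acta2 lay from 21.93 to 23.02 and that of Cav1 from 22.03 to 23.27. Ctgf lay from 23.82 to 26.13 and Thbs2 from 23.32 to 26.52. The narrowest gap to a negative-control well of the same animal was 2.93 cycles, for Thbs2, which is 7.62 times the signal. The primers of Acta2 (chromosome 19), Ctgf (chromosome 10) and Thbs2 (chromosome 17) lie in neighbouring exons according to the plate map, exons 2 and 3, 3 and 4, and 13 and 14. Both Cav1 primers (chromosome 6) lie in exon 3, so that its product of 103 bp would be the same size from genomic DNA. Signal from genomic DNA was not tested. The Ct of different assays depends on their primers, so levels are compared between groups and not between genes.

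The level of a gene in an animal was computed as −ΔCt, the mean Ct of 6 house-keeping genes (Ppia, Tbp, B2m, Rplp0, Tfrc and Gusb) minus the Ct of the gene, a log2 scale on which higher means more RNA. The study called a gene at a fold change of at least 1.4 with p of at most 0.05, and this threshold was applied to unadjusted p-values from limma. All 4 genes had a higher mean level in CpG-proB recipients, and 1 of the 4, Thbs2, passed the threshold. Over the plate, 14 of 82 genes passed (17.1%), 10 of them with more RNA in recipients (12.2%) and 4 with less (4.88%). The median log2 fold change was 0.86 over the 4 genes and 0.11 over the 82 genes tested. The split over the plate depended on the reference, with 12 genes higher and 0 lower for all 8 house-keeping genes, where the plate median was 0.41, and with 6 higher and 16 lower for Gusb, B2m and Tbp, where it was −0.35. Thbs2 was the only one of the 4 genes to pass with either of these references. Exact permutation tests are two-sided and, with 3 animals against 3, cannot give a p under 0.1.

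Thbs2 had −ΔCt levels of −3.94, −3.58 and −2.36 in GVHD controls 1, 2 and 3 and of −1.66, −1.44 and −1.55 in CpG-proB recipients 4, 5 and 6. Every recipient was above every control, and the controls were far more scattered (SD 0.829) than the recipients (SD 0.108). Control 3 stood nearest to the recipients. On the log2 scale Thbs2 differed by 1.75 (standard error 0.53), or 3.35-fold more RNA with a 95% confidence interval from 1.54 to 7.30. Thbs2 passed the threshold by limma, with an unadjusted p of 0.00443 and an adjusted p of 0.061 after Benjamini-Hochberg correction over the 82 genes. At an adjusted p of at most 0.05, 2 genes of the plate would be called (2.44%), and none of the 4. Before any normalization the groups were separated by 0.03 cycles, with Ct values of 25.28, 26.52 and 24.56 in controls and of 23.32, 24.15 and 24.53 in recipients. Without normalization, Thbs2 no longer passed by limma (log2 fold change 1.45, unadjusted p of 0.0526; exact permutation test, p = 0.1).

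Ctgf had −ΔCt levels of −3.24, −3.19 and −2.94 in GVHD controls and of −2.16, −2.60 and −2.31 in CpG-proB recipients. The groups did not overlap, as in 17 of the 82 genes (20.7%), 13 of them higher in recipients (15.9%), and Ctgf and Thbs2 were the 2 of the 4 genes for which this held (exact permutation test, p = 0.1 for each). The log2 fold change of Ctgf was 0.77 (standard error 0.48), with a 95% confidence interval from −0.25 to 1.79, an adjusted p of 0.407 from limma and no call. With this reference, Ctgf had the smallest pooled SD within groups of the 82 genes tested, at 0.197. This place moved with the reference, to rank 3 with all 8 house-keeping genes (0.260), rank 12 with Gusb, B2m and Tbp (0.391) and rank 37 without normalization (0.820). Limma moderates the variance of a gene towards that of all genes, whose median pooled SD was 0.625. When each gene kept its own variance, Ctgf passed at the same fold change, with an unadjusted p of 0.00871 from limma's linear model without moderation (exact permutation test, p = 0.1). The threshold was then met by 15 of the 82 genes (18.3%), 12 of them higher in recipients (14.6%). The raw Ct values of Ctgf, unlike its −ΔCt, overlapped between the groups, with 24.58, 26.13 and 25.14 in controls and 23.82, 25.31 and 25.29 in recipients.

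Cav1 had −ΔCt levels of −1.54, −0.33 and 0.058 in GVHD controls and of −0.37, 0.58 and 0.83 in CpG-proB recipients. Recipient 4 lay within the range of the controls. The log2 fold change of 0.95 (standard error 0.56, 95% confidence interval from −0.23 to 2.14) did not pass, with an adjusted p of 0.404 from limma. Its raw Ct was nearly the same in the 3 recipients, at 22.03, 22.13 and 22.15, while the controls were at 22.88, 23.27 and 22.14. Single animals decided the call, since Cav1 passed without control 3 (1.29) or without recipient 4 (1.31), and its log2 fold change was 0.48 without control 1. The plate moved as well. Without control 3, 13 of 82 genes passed, 12 of them higher in recipients. Without recipient 4 this was 16, with 15 higher. The plate median was 0.27 in both cases, against 0.11 with all animals.

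Acta2 had −ΔCt levels of −0.69, −0.083 and −0.11 in GVHD controls and of −0.27, 0.53 and 0.30 in CpG-proB recipients. Recipient 4 again lay within the range of the controls, and the groups overlapped. The log2 fold change of 0.48 (standard error 0.50) had a 95% confidence interval from −0.57 to 1.54, which spans both a lower level in recipients and one 2.90-fold higher. Acta2 did not pass, with an adjusted p of 0.662 from limma (exact permutation test, p = 0.3). Control 1 had the lowest −ΔCt of the 6 animals for all 4 genes, and for 21 of the 82 genes tested, which did not set it apart over the plate, since control 2 was lowest for 21 and recipient 4 for 23. The mean Ct of its 6 house-keeping genes was also the lowest, at 21.3 against 21.7 to 23.0 in the other animals, and its part in these levels was not tested.

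**Figure D1:**
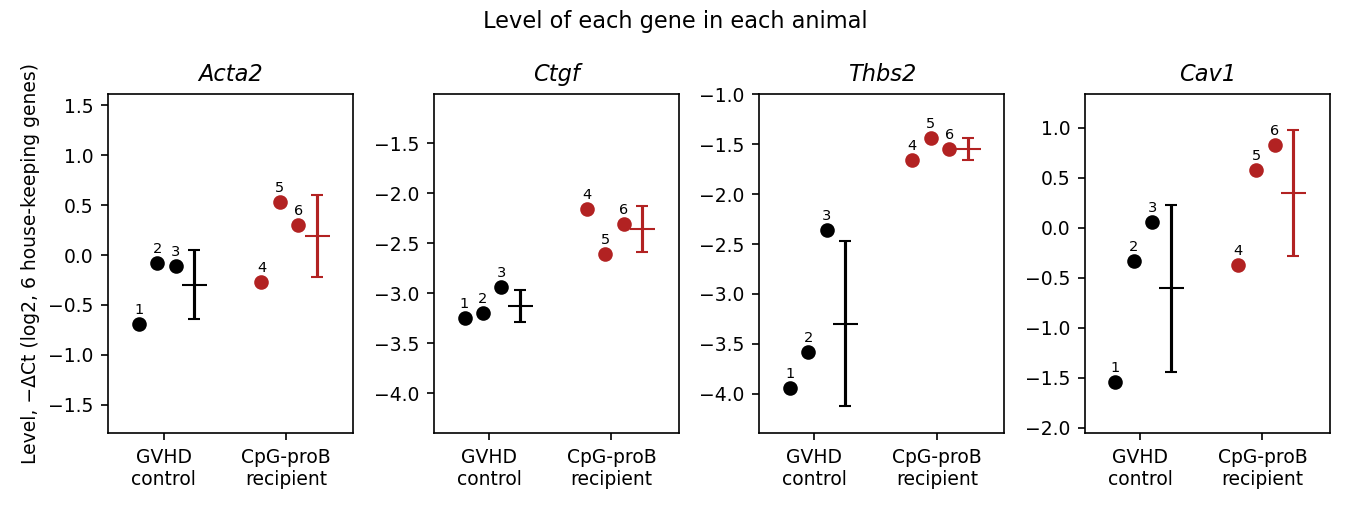
Level of Acta2, Ctgf, Thbs2 and Cav1 in each animal, as −ΔCt on a log2 scale, with GVHD controls in black and CpG-proB recipients in red. Points are animals with their numbers, horizontal bars with whiskers are the mean ± SD (n = 3), and each panel spans the same height. Thbs2 and Ctgf do not overlap between the groups, whereas recipient 4 lies within the controls for Acta2 and Cav1.

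Exchanging the reference adds the same amount to the log2 fold change of every gene, so the place of a gene among the 82 does not depend on it. By log2 fold change Thbs2 was at rank 5 from the highest, Cav1 at rank 13, Ctgf at rank 19 and Acta2 at rank 27. Relative to the median of the plate, Thbs2 lay 1.63 higher on the log2 scale, Cav1 0.84, Ctgf 0.66 and Acta2 0.37. These distances were the same under the 7 references computed. Without a reference gene, the difference in Ct between Thbs2 and another assay could be taken for 89 assays with a Ct in all animals. The mean of Thbs2 was higher in recipients against 85 of them, and the groups did not overlap in that direction against 57. This count was 25 for Ctgf, 21 for Cav1 and 19 for Acta2, and its median over all 90 assays was 4.5. The house-keeping gene B2m, at 26, was above these 3 genes, and Gusb, at 19, was level with Acta2. In the other direction, lower in recipients without overlap, the counts were 7 for Acta2, 5 for Ctgf, 3 for Cav1 and 2 for Thbs2.

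**Figure D2:**
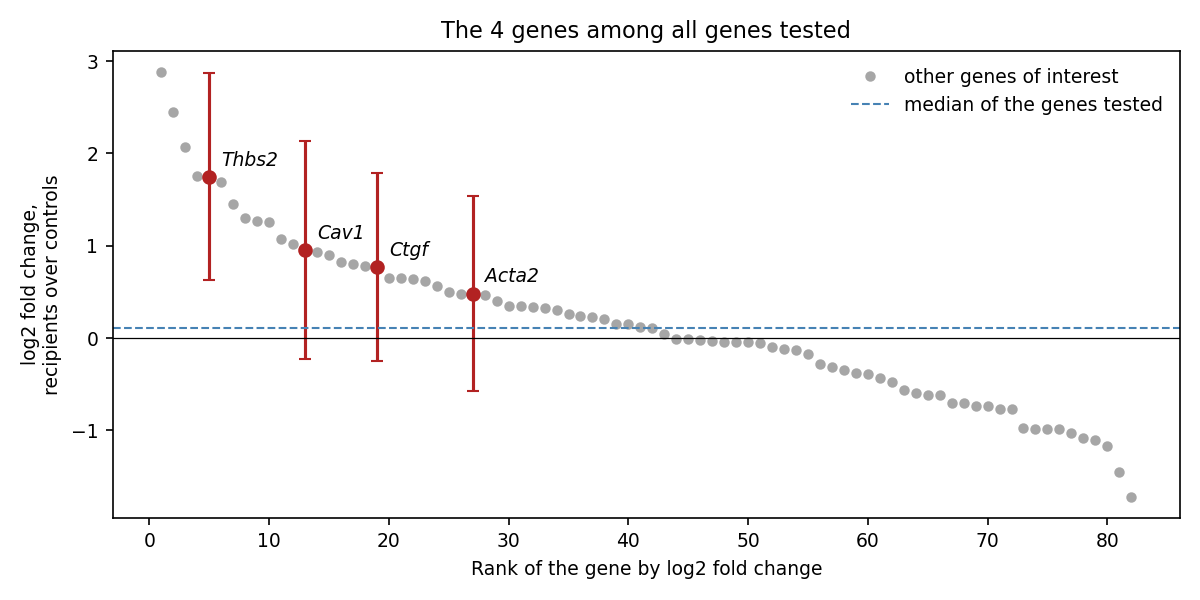
Log2 fold change of CpG-proB recipients over GVHD controls for the 82 genes tested, ordered from the highest. Red points are the 4 genes with their 95% confidence intervals from limma, grey points the other genes, and the dashed line the median of 0.11. The interval of Thbs2 lies above 0, and those of Cav1, Ctgf and Acta2 include 0.

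The size of the differences, and their sign for genes other than Thbs2, rested on the house-keeping gene chosen. Against each of the 8 house-keeping genes alone, Thbs2 was higher in recipients with all 8, by 0.69 (B2m) to 3.08 (Actb) on the log2 scale, and without overlap between the groups with 6. Ctgf was likewise free of overlap with 6 of them, and differed by −0.28 with B2m and by 2.10 with Actb. Cav1 and Acta2 were without overlap with 2 each, and ranged from −0.10 to 2.28 and from −0.57 to 1.81. With B2m as the only reference, 3 of the 4 genes thus had a lower mean in recipients. B2m encodes the light chain of MHC class I molecules. It was the least stable of the 8 about their common mean, with an SD of 1.02 cycles over the animals, against 0.270 for Tbp, the most stable. In raw Ct the order was different, with B2m second to Gusb (SD 0.642 and 0.498 cycles) and ahead of Tbp (0.765). Gusb alone left Acta2 with a difference of 0.11.

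**Figure D3:**
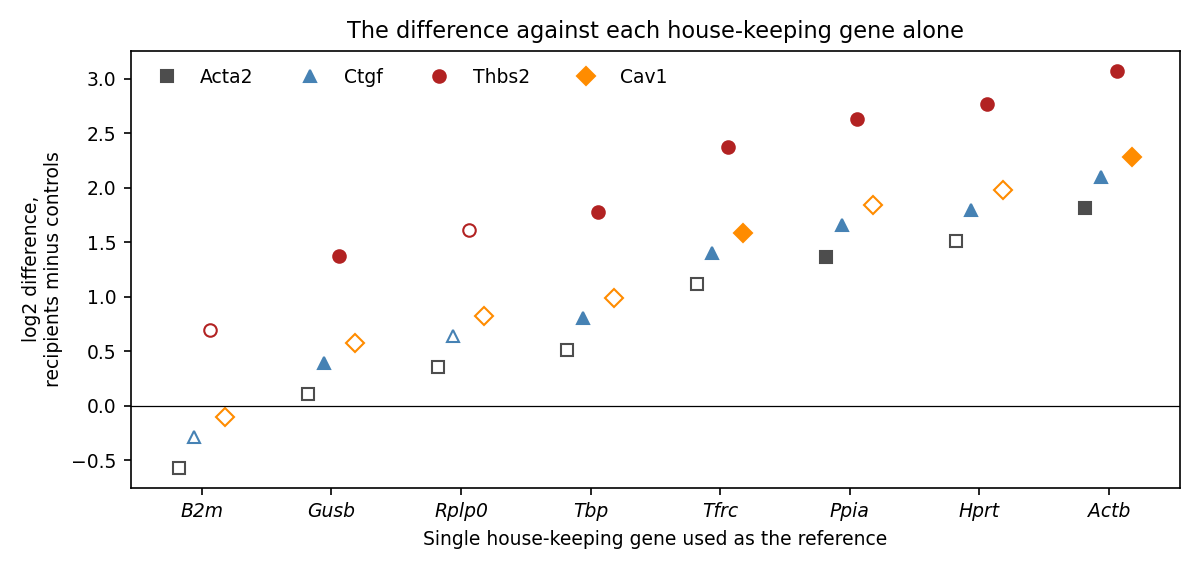
Difference in log2 level between CpG-proB recipients and GVHD controls for the 4 genes, with each house-keeping gene alone as the reference. Filled symbols are differences without overlap between the 3 recipients and the 3 controls, and open symbols those with overlap. Thbs2 stays above 0 with all 8 references, and the other 3 genes are below 0 with B2m.

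Ratios between the 4 genes within an animal need no reference gene and show whether the groups differed more in one gene than in another. Relative to Acta2, Thbs2 was at −3.25, −3.50 and −2.25 in GVHD controls and at −1.39, −1.97 and −1.85 in CpG-proB recipients on the log2 scale. All recipients were above all controls, by 1.26 on average, or 2.40-fold (exact permutation test, p = 0.1, adjusted p = 0.3 over the 6 pairs). Relative to Cav1 the difference was 0.79, again without overlap (exact permutation test, p = 0.1, adjusted p = 0.3), though recipient 6 at −2.38 and control 1 at −2.40 nearly met. Relative to Ctgf it was 0.98 with overlap (exact permutation test, p = 0.2, adjusted p = 0.4). The pairs without Thbs2 differed less, by 0.47 for Cav1 over Acta2, 0.29 for Ctgf over Acta2 and 0.18 for Cav1 over Ctgf, with exact permutation p-values from 0.3 to 0.7. With single animals left out, Cav1 over Acta2 ranged from 0.20 without control 1 to 0.71 without control 3. The sign changed without recipient 4 for Ctgf over Acta2 (−0.040), and without control 1, recipient 5 or recipient 6 for Cav1 over Ctgf. With 3 animals against 3, no ratio could have reached an adjusted p of 0.05.

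Thbs1, on chromosome 2, encodes thrombospondin-1, the close relative of thrombospondin-2 and an activator of latent TGF-beta. Controls had a mean −ΔCt of −1.73 ± 0.65 (SD, n = 3), CpG-proB recipients had −1.40 ± 0.61 (SD, n = 3), and the log2 fold change of 0.33 (standard error 0.54) did not pass. The ratio of Thbs2 to Thbs1 within an animal was at −1.65, −2.56 and −0.50 in controls and at 0.16, −0.74 and 0.12 in recipients. Recipient 5 lay below control 3, so the groups overlapped, with a difference of 1.42 (standard error 0.66; exact two-sided permutation test, p = 0.2).

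**Figure D4:**
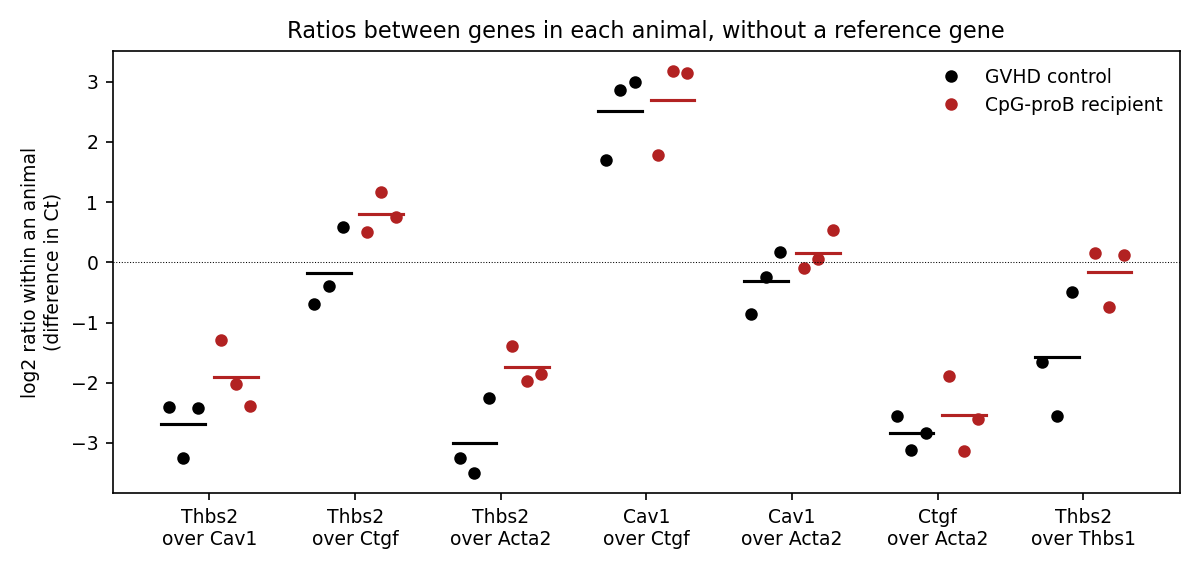
Log2 ratio between genes within each animal, the difference of their Ct values, for the 6 pairs of the 4 genes and for Thbs2 over Thbs1. Points are animals (GVHD controls black, recipients red) and lines are group means. Thbs2 over Cav1 and Thbs2 over Acta2 are higher in all recipients than in all controls, and the other 5 ratios overlap.

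To find the assays closest to each gene over the 6 animals, the SD of their difference in Ct was used, which is small where both go up and down together and also where neither varies much. It is a description over the 6 animals of both groups, so assays with a like difference between the groups come out close by construction. Closest to Thbs2 were Il33 (SD 0.318 cycles), which encodes an epithelial alarmin cytokine, Pdgfb (0.329), a growth factor for mesenchymal cells, and Csf1r (0.404), the receptor of macrophage growth factor. The median over the 89 assays was 1.20 for Thbs2. Closest to Cav1 were genes of matrix turnover, Mmp2 (0.216), a gelatinase, and Timp2 (0.309), an inhibitor of metalloproteinases, then Vegfa (0.371), the endothelial growth factor. Ctgf went with Stat6 (0.278), a transducer of IL-4 and IL-13 signals, and with the TGF-beta ligand gene Tgfb2 (0.328). Acta2 went with the house-keeping gene Gusb (0.232), with Tgfb2 (0.309) and with the transcription factor gene Sp1 (0.329). None of the 4 genes was among the 3 assays closest to another of them.

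Beside these genes the plate held 12 genes of the TGF-beta pathway, of which 1 passed the threshold, the receptor gene Tgfbr2 (log2 fold change 1.45, adjusted p = 0.183 from limma). The ligand gene Tgfb2 followed at 0.90 without passing. Of the 12, 6 had negative values, down to −0.73 for the ligand gene Tgfb1, which did not pass, and the median was 0.16. Of 4 genes for collagens and their processing, Col3a1 passed with less RNA in recipients (−1.45, adjusted p = 0.18 from limma). Serpinh1, which encodes the collagen chaperone HSP47, was at −1.02 without passing. These 4 went both ways, 2 with a positive and 2 with a negative log2 fold change, up to 1.02 for the cross-linking enzyme gene Lox, which did not pass, with a median of −0.43. Among 3 subunits of collagen-binding integrins, Itga1 passed (1.27) and Itgb1 did not (0.64). Of 5 growth factor genes, Egf (2.45) and Pdgfb (1.70) passed, 2 had negative values, down to −0.70 for Pdgfa, which did not pass, and the median was 0.78. The paper, with other software and the same thresholds, reports Pdgfa as downregulated in recipients. Of 9 genes of matrix turnover, Mmp9 (2.07) and Timp2 (1.26) passed, 4 had negative values, down to −0.99 for Timp1, which did not pass, and the median was 0.34. Among the negative ones, Mmp13 (Ct from 30.31 to 32.02) and Mmp3 (from 29.80 to 31.98) were as late as the negative-control wells or later. The Ct of Mmp9 in controls (29.83, 29.84 and 28.52) lay within the range of the negative-control wells, so that its fold rests on control wells near background. Only in control 3 was it earlier than both negative-control wells of the same animal (29.43 and 29.89). The Ct of Timp1 in recipients (29.91, 29.38 and 29.46) lay in the range over all animals too. Egf and Itga1 reached that range in control 2 (28.29 and 28.33), but came before the negative-control wells of that animal (29.55 and 30.13). Members of these lists were chosen with results of these animals known, so the counts are descriptive.

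Markers of other cells of the skin were few on the plate, which held no keratin and no endothelial or fat marker. Among 3 macrophage genes, Csf1r passed (1.30), whereas Adgre1 (−0.60) and Cd68 (−0.56) did not, and their mean −ΔCt ranged from −5.15 to −4.06 in GVHD controls against −4.90 to −4.26 in recipients. The Ct of Adgre1 in recipients (28.22, 28.24 and 28.56) lay within the range of the negative-control wells. In each recipient it was earlier than the earliest negative-control well of that animal (28.97, 28.74 and 29.32). None of 5 genes of T and cytotoxic cells passed, with mean levels from −5.46 to −3.87 in GVHD controls against −4.58 to −4.40 in recipients. The list included Gata3, which had the lowest mean Ct of the 82 genes tested, at 22.1, against 26.9 to 30.8 for the others. Which cells of the skin gave the Gata3 signal was not tested. The mean levels rest in part on late wells. Tbx21 (mean Ct 30.8) was later than the range of the negative-control wells. In control 2, Ifng (29.58) lay between the negative-control wells of that animal (29.55 and 30.13). Gzmb (28.99) and Eomes (28.94) in control 2 came before both. They still lay within the range over all animals, as did Eomes in recipient 5 (28.61). The B-cell gene Fcer2a passed with less RNA in recipients (−1.72), at a mean Ct of 31.2 that was later than the negative-control wells. Of the fibroblast genes, Col1a2 (0.16) did not pass and Col3a1 was lower, as given above. Their mean levels were −1.86 to −1.73 in controls against −2.97 to −1.88 in recipients. The part of the cell makeup of the skin in the levels of the 4 genes was not tested.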

How the data were processed

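The authors made cDNA from 1 ng of skin RNA with random primers and ran a custom SYBR Green plate of 96 wells. The deposited values are raw Ct, 1 for each well of an animal. The rule that set the Ct and the number of technical repeats are not given in the sources used here. They also deposited a ΔΔCt and a fold change per gene for the group comparison, which were not used. Animals were grouped by the submitters' labels, and wells were named from the plate map, in which Ctgf carries an older symbol than in RefSeq. The study normalized to the geometric mean of 6 house-keeping genes, which is the arithmetic mean of their Ct, without naming them. The 6 used here, and the genes and lists described, were chosen with earlier results of these data known, and all 8 were tried as well.

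The main test was limma 3.58.1 in R 4.3.3 (two-sided moderated linear model from lmFit and eBayes, 12.7 prior degrees of freedom) over the 82 genes with at least 2 Ct values per group. Wells without a Ct (5 on the plate) were left missing. Adjusted p-values are Benjamini-Hochberg values over these genes. Ratios within an animal were compared by exact permutation tests. Confidence intervals are those of limma. The genes named were the 4 genes, Thbs1, the 3 assays closest to each (1 of those closest to Ctgf is not reported here), and those of each list past the threshold or with the 2 largest changes, beside the markers of macrophages, fibroblasts and B cells. Tgfb1, Lox, Pdgfa, Timp1, Gata3 and the genes given for their late Ct were named after their values were seen. Efficiencies were not measured, and a shared efficiency of 1.9 was tried in place of 2. Figures were drawn with matplotlib 3.10.9 in Python 3.11.15. No paired analysis was possible because the animals carry numbers from 1 to 6 with none shared between groups. With 3 animals per group, the number of animals limits the precision.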

Additional observations from a re-analysis of the deposited data

How the results depend on the processing

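In 26 alternatives the log2 fold change of each of the 4 genes stayed above 0, and that of Acta2 was smallest, at 0.019, with Gusb, B2m and Tbp, the 3 house-keeping genes that varied least in raw Ct. Alternatives that changed only the variance, missing wells, gene filter, adjusted p or efficiency could not change this sign. Single house-keeping genes were not among the 26. With B2m alone, Acta2 (−0.57), Ctgf (−0.28) and Cav1 (−0.10) had a lower mean in recipients. Thbs2 passed the threshold in 24 of them, and not without normalization (1.45) or when an adjusted p of at most 0.05 from limma was required (1.75), which 2 genes of the plate met. Ctgf passed with its own variance (0.77). Cav1 passed with a variance trend (0.95). A pair of references was added after seeing the data. With Tbp, Tfrc and Ppia, the most stable about the mean of all 8, Ctgf (1.29) and Cav1 (1.47) passed, as did 21 of the 82 genes, all higher in recipients. With Ppia, Tbp and Actb, all 4 genes passed (Acta2 1.23, Ctgf 1.52, Cav1 1.70), as did 25 genes of the plate, all higher in recipients. The median over the 4 genes was 1.38 and 1.61 with these references and 0.40 with Gusb, B2m and Tbp, while that of the plate was 0.63, 0.86 and −0.35. The count over the plate was 22, 16 of them lower, with Gusb, B2m and Tbp and with the plate's median Ct as reference, and 6 without normalization. With each animal left out in turn, the log2 fold change ranged from 1.42 to 2.21 for Thbs2, from 0.67 to 0.89 for Ctgf, from 0.48 to 1.31 for Cav1 and from 0.28 to 0.71 for Acta2, the median over the 4 from 0.60 to 1.07, and the count over the plate from 11 to 16. The ratio of Cav1 to Ctgf ranged from −0.23 to 0.64 (−0.055 without recipient 5, −0.035 without recipient 6), and that of Ctgf to Acta2 from −0.040 to 0.58. For the ratios of Thbs2 to the other genes, the lowest and highest differences were 0.49 and 1.64, and 0.92 and 1.95 for Thbs2 over Thbs1. An efficiency of 1.9 changed no call.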
